A study of Mus musculus with 14 samples.

Results

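The imprinted growth-control genes are 10 genes that mammals express mainly or wholly from 1 parental copy and that act on growth, proliferation or metabolism: Sgce, Peg10, H19, Igf2, Meg3, Dlk1, Peg3, Plagl1, Mest and Cdkn1c. They were matched by symbol among the 55335 genes of the count table, and all 10 were found. The set was selected on the measured level of Sgce, which was lower after external irradiation, so every comparison of Sgce that uses the untreated or the irradiated libraries is given as a description, without a test, and so are all comparisons that use the irradiated libraries. The other 9 genes were tested only in the comparisons among untreated and radioimmunotherapy libraries.

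RNA-seq was performed on cells sorted from bone marrow of reporter mice that carry Cre recombinase driven by Cdh5 (the gene for VE-cadherin) and a tdTomato cassette at Rosa26, so that cells with a history of Cdh5 expression fluoresce red. The sort kept cells negative for lineage markers and CD45 and positive for tdTomato, and every group, the controls included, carried both transgenes. The 14 libraries fell into 4 groups: untreated (n = 4), total body irradiation with 500 cGy from a caesium source (TBI, n = 5), 20 µCi of radioimmunotherapy on a non-targeting IgG (IgG RIT, n = 3) and 20 µCi of radioimmunotherapy targeted to CD45 (CD45 RIT, n = 2). Treated mice were sampled 8 days after treatment. TBI replicate 2 was not analysed here, and strain, age and sex are not given in the sources used here. The labels do not say whether replicates came from separate mice, so the p-values below measure the spread between these libraries, which may be technical.

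Total counts ranged from 16412779 to 31077588 per library, so that 3 counts, taken as the detection floor, stood for 0.0786 to 0.215 on the counts-per-million (CPM) scale. The CD45 RIT libraries correlated less with each other (r = 0.673 across genes, which are not independent replicates) than libraries within any other group (0.906 to 0.979), and CD45 RIT replicate 2 had the fewest genes detected, 17700. TBI replicate 6 stood apart in its group, with r of 0.911 to 0.923 to the other TBI libraries, against 0.956 to 0.979 among those. By Cdh5 and the summed endothelial list, the sorted cells carried little of the labelled endothelial identity. Cdh5 had 0 to 6 counts per library in untreated and TBI libraries and 0 in all 5 RIT libraries. The 20 endothelial markers summed to 154 to 204 CPM in untreated, 60.9 to 139 in TBI, 63.6 to 70.4 in IgG RIT and 92.8 to 345 in CD45 RIT libraries. Single genes of that list went both ways in CD45 RIT replicate 2. Kdr had 2390 counts and Flt4 1306 there, against 0 to 70 and 0 to 24 in all other libraries. Pecam1 had 4 counts there, against 894 to 1957 in untreated libraries, and Vwf had 0, against 365 to 888 in all other libraries. In contrast, 20 markers of marrow stromal cells, among them Cxcl12 and Lepr, summed to 3986 to 9601 CPM in untreated, 1133 to 2514 in TBI, 465 to 1338 in IgG RIT and 41240 to 68124 in CD45 RIT libraries. Erythroid markers summed to 8808 to 15696, 27474 to 178264, 136267 to 144710 and 47467 to 192255 CPM in the same order. The value of 178264 was that of TBI replicate 6, and the other TBI libraries lay at 27474 to 46389 CPM. The 12 stem and progenitor markers summed to 755 to 1193, 31.9 to 167, 25.5 to 46.9 and 56.1 to 178 CPM. The 15 haematopoietic markers summed to 2815 to 3473, 342 to 1834, 370 to 606 and 262 to 436 CPM, and the 15 neutrophil markers to 10296 to 12938, 95.1 to 1224, 602 to 804 and 5.36 to 183 CPM. TBI replicate 6 was the lowest TBI library in both, the other TBI libraries lying at 1371 to 1834 and 430 to 1224 CPM. The 10 megakaryocyte markers summed to 327 to 428, 60.8 to 95.7, 68.5 to 119 and 38.8 to 210 CPM. In such bulk samples fewer cells of a type and less RNA per cell cannot be told apart.

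Genomic imprinting marks a gene in the germ line, largely by DNA methylation, so that 1 parental copy stays silent in the offspring. As a textbook rule, imprinted genes that promote growth tend to be expressed from the paternal copy, and several that restrain it from the maternal copy. In this set Igf2, Dlk1, Peg3, Plagl1, Mest, Peg10 and Sgce are expressed from the paternal copy, whatever their effect on growth. Cdkn1c, H19 and Meg3 are expressed from the maternal copy. In the marrow, Cdkn1c and the genes of the H19-Igf2 and Dlk1-Meg3 clusters are known for a role in the quiescence of blood stem cells. The counts do not separate the parental copies, so they measure the summed level of a gene and not its imprint.

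The methylated copies of imprinted control regions are protected in the embryo by the zinc-finger protein ZFP57, which binds the methylated hexamer TGCCGC. Promoters from RefSeq (GRCm38.p6, 250 bases before to 50 after a start site) were matched for 6 of the 10 genes: Mest, Peg3, Igf2, Plagl1, Dlk1 and Meg3. The promoters of Plagl1, Mest and Peg3, all paternally expressed, are shown. These genes were under 3 CPM in every library outside CD45 RIT and over 45 CPM in at least 1 CD45 RIT library. In CD45 RIT replicate 1, Peg3 was at 15.1 CPM and Mest at 0. Each runs 5′ to 3′ on the strand of its gene, and capitals mark TGCCGC or its reverse complement GCGGCA.
Plagl1, chr10:13090582-13090881, plus strand: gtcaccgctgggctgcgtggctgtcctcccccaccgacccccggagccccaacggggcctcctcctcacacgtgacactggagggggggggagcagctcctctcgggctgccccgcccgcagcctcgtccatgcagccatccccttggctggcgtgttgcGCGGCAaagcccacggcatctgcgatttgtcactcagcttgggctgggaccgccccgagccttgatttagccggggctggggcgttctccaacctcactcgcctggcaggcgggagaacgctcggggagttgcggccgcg
Mest, chr6:30737800-30738099, plus strand: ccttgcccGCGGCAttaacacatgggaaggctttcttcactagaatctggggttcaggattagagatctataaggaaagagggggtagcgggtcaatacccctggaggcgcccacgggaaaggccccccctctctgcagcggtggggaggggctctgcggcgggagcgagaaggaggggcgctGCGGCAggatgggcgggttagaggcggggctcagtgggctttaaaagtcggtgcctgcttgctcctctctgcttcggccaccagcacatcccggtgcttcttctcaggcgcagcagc
Peg3, chr7:6730370-6730669, minus strand: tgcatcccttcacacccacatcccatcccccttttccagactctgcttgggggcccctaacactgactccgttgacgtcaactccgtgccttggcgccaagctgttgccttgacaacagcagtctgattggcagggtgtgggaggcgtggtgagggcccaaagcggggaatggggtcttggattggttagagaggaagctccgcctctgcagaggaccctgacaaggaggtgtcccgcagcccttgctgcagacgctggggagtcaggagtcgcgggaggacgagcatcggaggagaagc
The Plagl1 window holds 1 copy of the hexamer and 26 CpG dinucleotides, the Mest window 2 copies and 17 CpG, and the Peg3 window no copy and 13 CpG. Another RefSeq start of Mest, with a window from 30733256, holds 0 copies and 8 CpG. Among 32851 RefSeq promoters of the same length, 11.6% hold the hexamer on either strand, 1.53% hold 2 or more, and the median number of CpG is 7. Fewer CpG occur in 83.1% of these promoters than in that of Plagl1, in 68.6% than in that of Mest and in 62.1% than in that of Peg3. A match is a description of the letters, and counts per gene do not tell which start site was used.

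Sgce encodes epsilon-sarcoglycan, a membrane protein of the dystrophin-associated complex that links the cytoskeleton to the matrix. By group mean CPM it was the most abundant of the 10 genes outside the CD45 RIT group. Its gene (ENSMUSG00000004631.15) lies on chromosome 6 from 4674350 to 4747207 on the minus strand (GRCm38). In untreated libraries Sgce was at 34.3, 24.0, 13.4 and 18.0 CPM. TBI libraries were at 2.55, 2.56, 2.53, 3.05 and 2.37 CPM and IgG RIT libraries at 2.72, 1.64 and 2.00 CPM. CD45 RIT libraries were at 138 and 97.7 CPM. TBI and IgG RIT libraries thus lay in 1 narrow band below all untreated libraries, and both CD45 RIT libraries lay above all others. Untreated libraries averaged 22.4 ± 9.03 CPM (SD, n = 4). The mean was 2.61 ± 0.257 CPM after TBI (SD, n = 5), 2.12 ± 0.550 CPM after IgG RIT (SD, n = 3) and 118 ± 28.8 CPM after CD45 RIT (SD, n = 2). As the comparison that chose the set, TBI against untreated is described only: the mean was 8.58-fold lower, and the fitted log2 difference was -3.10. The fitted log2 differences from untreated were -3.40 in IgG RIT and 2.40 in CD45 RIT, also without a test because the untreated libraries had a part in the choice.

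The comparison of CD45 RIT with IgG RIT sets 2 libraries against 3, none of them from the groups behind the choice, although its spread was estimated over all 14 libraries. Sgce was higher in CD45 RIT, with a log2 difference of 5.80 (SE 0.46, adjusted p = 4.62e-06 by edgeR's quasi-likelihood test with Benjamini-Hochberg adjustment), with both CD45 RIT libraries above all 3 IgG RIT libraries. Over 12 alternative settings the adjusted p ranged from 1.22e-47 to 0.0231, the highest being that with only these 5 libraries in the fit (log2 5.77), and leaving out any library of either group gave 5.52 to 6.02. The stromal list moved with it: all 20 of its genes were called higher in CD45 RIT than in IgG RIT, beside 20.2% of all genes. Set against that list, Sgce had 2.60 to 4.38 counts per 1000 stromal list counts in untreated, 1.20 to 2.39 in TBI, 1.27 to 3.10 in IgG RIT and 1.11 to 2.36 in CD45 RIT libraries. On that scale the CD45 RIT and IgG RIT libraries overlapped, and the TBI and CD45 RIT libraries lay below every untreated library. The make-up of the list differed between libraries, so this order depends on the genes in it. Col1a2 and Cxcl12 had 110733 and 39372 counts in untreated replicate 1, and 139815 and 407745 in CD45 RIT replicate 1. The part of the stromal RNA in the change of Sgce was not tested.

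**Figure D1:**
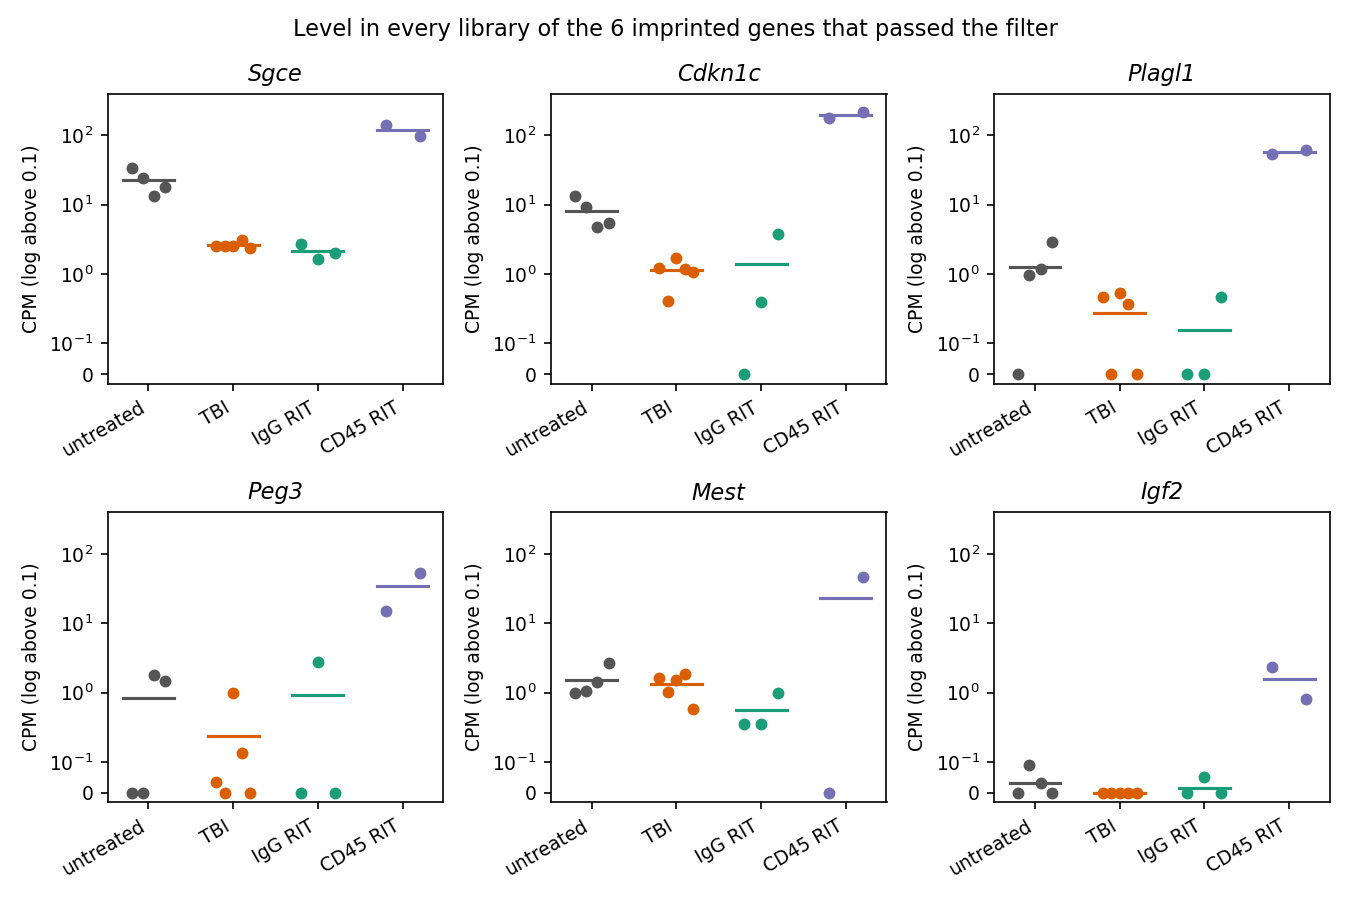
Level in CPM of Sgce, Cdkn1c, Plagl1, Peg3, Mest and Igf2 in each of the 14 libraries by treatment group, on an axis that is linear near 0 and logarithmic above. Points are libraries and lines are group means, and Sgce sits at 97.7 and 138 CPM in CD45 RIT against 1.64 to 3.05 CPM in all TBI and IgG RIT libraries.

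**Figure D2:**
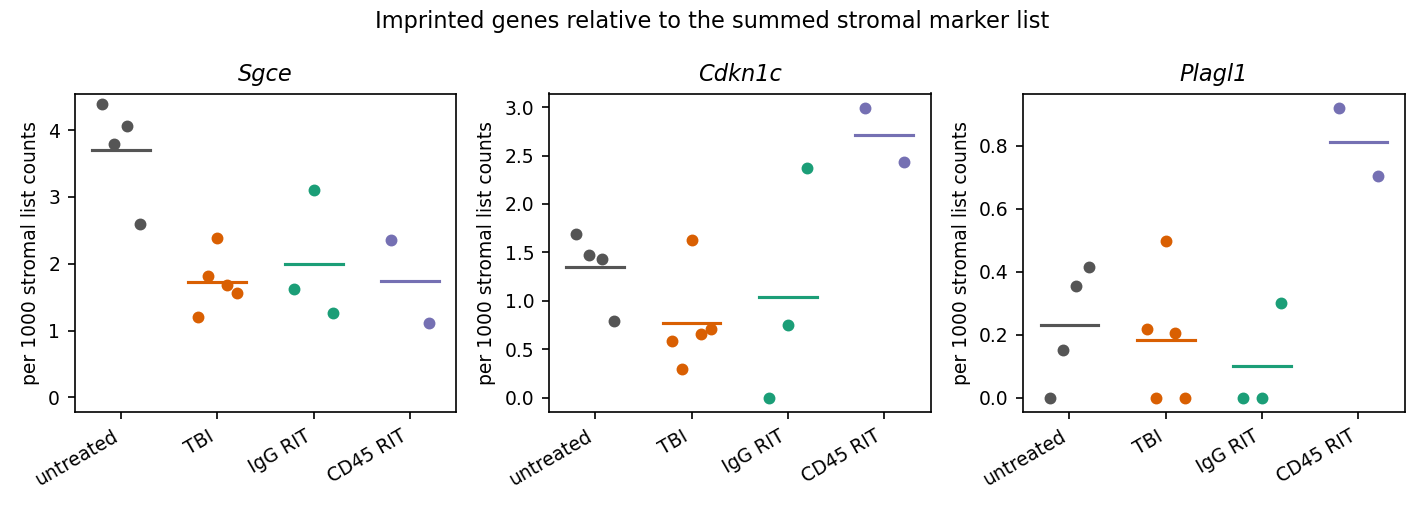
Counts of Sgce, Cdkn1c and Plagl1 per 1000 counts of a list of 20 stromal marker genes, 1 point per library and a line at each group mean, with linear axes. Sgce in CD45 RIT (1.11 to 2.36) lies below untreated (2.60 to 4.38), while Cdkn1c in CD45 RIT (2.43 to 2.99) lies above untreated (0.792 to 1.69). The make-up of the list differed between libraries, so these orders depend on the genes in it.

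Peg10 starts 99 bases from Sgce in the opposite orientation (chromosome 6, 4747306 to 4760517, plus strand) and encodes a retrotransposon-derived protein needed in the placenta. It did not follow Sgce. Peg10 had 0, 8, 0 and 1 counts in untreated libraries, 2 counts in TBI replicate 1 and 0 in the other TBI libraries, 0, 1 and 1 in IgG RIT and 0 in both CD45 RIT libraries, where Sgce had 2270 and 2031. Only untreated replicate 2 lay above the floor of 3 counts. Of 9 further genes of this cluster, 6 passed the filter on low counts. Pdk4, a kinase that restrains glucose oxidation, had 1595 and 2006 counts in CD45 RIT libraries, 1 to 74 in untreated, 9 to 39 in TBI and 0 to 61 in IgG RIT libraries, and was higher in CD45 RIT than in untreated by 6.31 (SE 1.42, adjusted p = 0.00556) and than in IgG RIT by 5.60 (SE 1.56, adjusted p = 0.0146). Pon2, a paraoxonase, was higher than in untreated by 0.82 in IgG RIT (SE 0.18, adjusted p = 0.00924) and by 1.18 in CD45 RIT (SE 0.19, adjusted p = 0.000764). Tfpi2, a secreted protease inhibitor, had 103 and 1429 counts in CD45 RIT and 21 to 60 in untreated libraries. It was higher by 5.08 (SE 1.37, adjusted p = 0.0142), and without CD45 RIT replicate 2 the change was 2.54 and was no longer called. The same held against IgG RIT, where the change of 5.20 (adjusted p = 0.0204) was also lost without IgG RIT replicate 2 or CD45 RIT replicate 2. Ppp1r9a, Pon3 and Casd1 were not called in any comparison.

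Cdkn1c encodes p57, an inhibitor of cyclin-dependent kinases and the maternally expressed cell-cycle brake of the set. The gene (ENSMUSG00000037664.13) lies on chromosome 7 from 143458339 to 143461050 on the minus strand. Its levels were 13.2, 9.31, 4.71 and 5.48 CPM in untreated libraries. TBI libraries were at 1.24, 0.415, 1.72, 1.19 and 1.08 CPM, IgG RIT libraries at 0, 0.398 and 3.73 CPM, and CD45 RIT libraries at 175 and 214 CPM. All TBI and IgG RIT libraries lay below all untreated libraries, and the CD45 RIT libraries lay above all others. The TBI mean was 7.25-fold below the untreated mean, a log2 difference of -2.86 that is given without a test. IgG RIT differed from untreated by -2.56 (SE 1.02, adjusted p = 0.103), which did not pass. Without IgG RIT replicate 3, the library at 3.73 CPM, the same difference was -5.28 (adjusted p = 0.0119, against 0.0119 to 1.00 over 13 alternatives).

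In CD45 RIT, Cdkn1c was higher than in untreated by 4.57 (SE 1.04, adjusted p = 0.00597) and than in IgG RIT by 7.13 (SE 1.31, adjusted p = 0.00129). Both calls held when any 1 library was left out. Over all alternatives that gave an adjusted p, these ranged from 0.00275 to 0.188 against untreated and from 0.000255 to 0.111 against IgG RIT. Set against the stromal list, Cdkn1c had 0.792 to 1.69 counts per 1000 stromal list counts in untreated libraries and 2.43 to 2.99 in CD45 RIT. It had 0.295 to 1.62 in TBI and 0 to 2.37 in IgG RIT, so the CD45 RIT libraries lay above all others on this scale. This order depends on the genes in the list. Beside Cxcl12 alone, Cdkn1c had 503 counts to 39372 in untreated replicate 1. In CD45 RIT it had 2877 to 407745 and 4444 to 558158, a lower share. The other untreated libraries had a lower share than CD45 RIT. TBI replicates 1, 4 and 5 had 35 to 4106, 36 to 1876 and 35 to 1171, a higher share than both CD45 RIT libraries. TBI replicate 3 lay between the CD45 RIT libraries, and TBI replicate 6 and the IgG RIT libraries lay below them. Of the 20 stromal genes 19 were called higher in CD45 RIT than in untreated, beside 14.5% of all genes. Their part in the change of Cdkn1c and of the genes below was not tested. A lncRNA on the opposite strand, Gm44732, lies inside Cdkn1c, and its counts moved with those of Cdkn1c, reaching 1139 and 2111 in the CD45 RIT libraries. The library kit does not mark strand, so reads of the overlap cannot be told apart.

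By group mean, Cdkn1c was also the most abundant of the 10 genes per kilobase of gene length. It stood at 4.01 ± 1.91 CPM per kilobase in untreated libraries (SD, n = 4) against 2.11 ± 0.851 for Sgce, and at 95.5 ± 13.3 in CD45 RIT libraries (SD, n = 2). In CD45 RIT the next levels were 11.1 ± 2.71 for Sgce, 7.40 ± 0.712 for Plagl1, 5.82 ± 8.24 for Mest and 2.53 ± 2.00 for Peg3, of which Mest overlaps its neighbours within its spread. Igf2 followed at 0.274 ± 0.185 CPM per kilobase. In untreated libraries, Mest (0.387 ± 0.193), Plagl1 (0.160 ± 0.153) and Peg3 (0.0605 ± 0.0704) came after Sgce and overlapped their neighbours in this order.

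Of 10 further genes of the Cdkn1c cluster, 9 passed the filter. Slc22a18, an organic cation transporter, had 57 to 149 counts in untreated libraries, 0 to 8 in TBI, 0, 0 and 1 in IgG RIT, and 281 and 807 in CD45 RIT. Its pooled level in untreated libraries was 155 times that in IgG RIT (exact 95% interval for counting error 27.7 to 6147), and IgG RIT was lower with an adjusted p of 0.00408. Slc22a18 was higher in CD45 RIT than in untreated by 3.34 (SE 0.85, adjusted p = 0.0104). Cd81, a tetraspanin of the cell surface, was higher in CD45 RIT than in untreated by 1.72 (SE 0.20, adjusted p = 6.21e-05) and by 2.23 than in the IgG RIT libraries (SE 0.22, adjusted p = 1.63e-05). Phlda2, which restrains placental growth, went the other way: it had 48 to 157 counts in untreated libraries, 8 to 242 in TBI, 33, 21 and 8 in IgG RIT and 1 and 0 in CD45 RIT, and was lower in CD45 RIT than in untreated with an adjusted p of 0.00647 and than in IgG RIT with one of 0.0170, the second lost without CD45 RIT replicate 2. Tnfrsf23, a decoy receptor, had 489 counts in CD45 RIT replicate 1 and 1 in replicate 2, against 13 to 51 in untreated and 0 in all IgG RIT libraries, and was called higher in CD45 RIT than in IgG RIT (adjusted p = 0.00756), a call lost without CD45 RIT replicate 1. Ascl2, Kcnq1ot1, Nap1l4, Osbpl5 and Tssc4 were not called in any of the 3 comparisons, nor were Cd81 and Tnfrsf23 in IgG RIT against untreated. The neighbours of Cdkn1c thus did not share 1 direction.

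Plagl1 encodes the zinc-finger protein ZAC1, a regulator of other imprinted genes (ENSMUSG00000019817.18, chromosome 10, 13060504 to 13131694, plus strand). It was at 0, 0.958, 1.17 and 2.88 CPM in untreated libraries, at 0.460, 0, 0.525, 0.373 and 0 CPM in TBI, and at 0, 0 and 0.473 CPM in IgG RIT. CD45 RIT libraries were at 53.9 and 61.8 CPM, close to each other and above all others. Plagl1 was higher in CD45 RIT than in untreated by 5.53 (SE 1.65, adjusted p = 0.0228) and than in IgG RIT by 8.47 (SE 2.14, adjusted p = 0.00897). The call against untreated was lost without untreated replicate 2 (adjusted p = 0.0600) or replicate 3 (0.0566), within a range of 0.00836 to 0.153 over 13 alternatives. Per 1000 stromal list counts, Plagl1 had 0 to 0.416 in untreated, 0 to 0.496 in TBI and 0 to 0.300 in IgG RIT libraries. It had 0.703 to 0.919 in CD45 RIT, above all others on this scale. This order too depends on the genes in the list. Beside Cxcl12 alone, Plagl1 had 83 counts to 33286 in untreated replicate 4. In CD45 RIT it had 884 to 407745 and 1284 to 558158, a lower share. The other untreated libraries had a lower share than CD45 RIT. TBI replicates 1, 4 and 5 had 13 to 4106, 11 to 1876 and 11 to 1171, a higher share than both CD45 RIT libraries. The other TBI libraries and the IgG RIT libraries lay below them. IgG RIT differed from untreated by -2.94 (SE 1.68, adjusted p = 0.246). Without IgG RIT replicate 3, the 1 library of that group with counts, this was -7.97 (adjusted p = 0.113), and the difference of CD45 RIT from IgG RIT was 13.50 (adjusted p = 0.0111).

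Peg3 encodes a zinc-finger protein of the p53 and NF-kappaB pathways (chromosome 7, 6703892 to 6730431, minus strand). It was at 0, 0, 1.80 and 1.49 CPM in untreated libraries, at 0.0354, 0, 1.00, 0.136 and 0 CPM in TBI, at 0, 2.74 and 0 CPM in IgG RIT, and at 15.1 and 53.6 CPM in CD45 RIT. By CPM both CD45 RIT libraries lay above all others, but they lay far apart. The differences of 5.38 from untreated (SE 2.22, adjusted p = 0.0795) and of 5.22 from IgG RIT (SE 2.49, adjusted p = 0.116) did not pass. The first was called without CD45 RIT replicate 1 (6.03, adjusted p = 0.0390) and the second without IgG RIT replicate 2 (12.75, adjusted p = 0.0412), against ranges of 0.0390 to 0.310 and 0.0412 to 0.284 over the alternatives. IgG RIT and untreated differed by 0.16 (SE 1.93, adjusted p = 0.968). Set against the stromal list on the scale used above, Peg3 had 0.258 and 0.610 in CD45 RIT libraries. It had 0 to 0.546 in untreated, 0 to 0.947 in TBI and 0 to 5.16 in IgG RIT libraries. On that scale CD45 RIT thus overlapped every other group, and this too depends on the genes in the list. None of 4 neighbours in the Peg3 cluster passed the filter.

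Mest, a gene for an enzyme of the alpha/beta hydrolase family that marks growth of mesoderm and fat (chromosome 6, 30723547 to 30748465, plus strand), was carried by 1 CD45 RIT library. It had 0 counts in CD45 RIT replicate 1 and 955 in replicate 2, where it stood at 45.9 CPM. Untreated libraries were at 0.996, 1.05, 1.44 and 2.63 CPM, TBI libraries at 1.63, 1.00, 1.53, 1.86 and 0.574 CPM, and IgG RIT libraries at 0.347, 0.349 and 0.999 CPM. The fit called Mest higher in CD45 RIT than in untreated by 3.91 (SE 1.35, adjusted p = 0.0415) and than in IgG RIT by 5.33 (SE 1.60, adjusted p = 0.0207). Without CD45 RIT replicate 2 these became -8.17 (adjusted p = 0.00491) and -6.94 (adjusted p = 0.0106), so the direction is that of 1 library. The call against untreated was also lost without any 1 of the untreated libraries (adjusted p 0.0610 to 0.0931), and that against IgG RIT without IgG RIT replicate 1 or 2 (0.0659 and 0.0682). Set against the stromal list, Mest had 0 in CD45 RIT replicate 1 and 0.523 in replicate 2. It had 0.127 to 0.435 in untreated, 0.380 to 1.44 in TBI and 0.207 to 0.657 in IgG RIT libraries. Replicate 2 thus lay within the TBI and IgG RIT ranges on that scale, which depends on the genes in the list. Mest overlaps Copg2 on the other strand by 912 bases. Neither Copg2 nor Cep41, the 2 neighbours that passed the filter, was called in any comparison.

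Igf2, the fetal growth factor (ENSMUSG00000048583.16, chromosome 7, 142650766 to 142666816, minus strand), was found above the floor only in CD45 RIT, with 38 and 17 counts (2.32 and 0.818 CPM). Untreated libraries had 0, 3, 1 and 0 counts, all 5 TBI libraries 0, and IgG RIT libraries 0, 1 and 0. It passed the filter on low counts only through the CD45 RIT libraries, so it had to be higher there, and no p is given for it. The pooled level in CD45 RIT was 48.2 times that in untreated libraries (exact 95% interval for counting error 17.8 to 183) and 83.4 times that in IgG RIT (14.4 to 3352), and at least 59.9-fold higher than in TBI against a floor of 3 counts over that group. The exact 95% lower limit of that last ratio for counting error was 47.1.

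H19, the maternally expressed RNA that shares its control region with Igf2 (chromosome 7, 142575529 to 142578143, minus strand), did not pass the filter. It had 1 count in untreated replicate 1, 14 in TBI replicate 3, 2 in TBI replicate 5, 1 in CD45 RIT replicate 2 and 0 in all other libraries. Of 5 further genes of the cluster 2 passed, and Mrpl23, a mitochondrial ribosomal protein gene beside H19, was lower than in untreated by 0.84 in both RIT comparisons (log2 -0.84, SE 0.23, adjusted p = 0.0277 in IgG RIT, and log2 -0.84, SE 0.27, adjusted p = 0.0291 in CD45 RIT). These calls were lost without untreated replicate 2 or 4 or IgG RIT replicate 1 or 2 in the first comparison and without untreated replicate 2 or CD45 RIT replicate 1 in the second. Lsp1, the other gene that passed, was not called in any comparison.

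Dlk1, a transmembrane ligand that restrains adipocyte differentiation (chromosome 12, 109452823 to 109463336, plus strand), and Meg3, the maternally expressed RNA of the same cluster (109541001 to 109571726, plus strand), were at or near the floor in nearly every library, Dlk1 in untreated replicate 2 being the exception. Dlk1 had 0, 26, 1 and 1 counts in untreated libraries, 1 in TBI replicate 6 and 0 in all others. Meg3 had 1, 5, 2 and 1 counts in untreated libraries, 3 and 2 in TBI replicates 1 and 3, 1 in IgG RIT replicate 3 and 0 in all others. Neither passed the filter, and with so few counts a difference between groups was not detectable at this depth. Of the 4 further genes of the cluster none passed, although Rian, a maternally expressed RNA downstream of Meg3, had 210 counts in CD45 RIT replicate 2 and 5 or fewer in every other library.

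**Figure D3:**
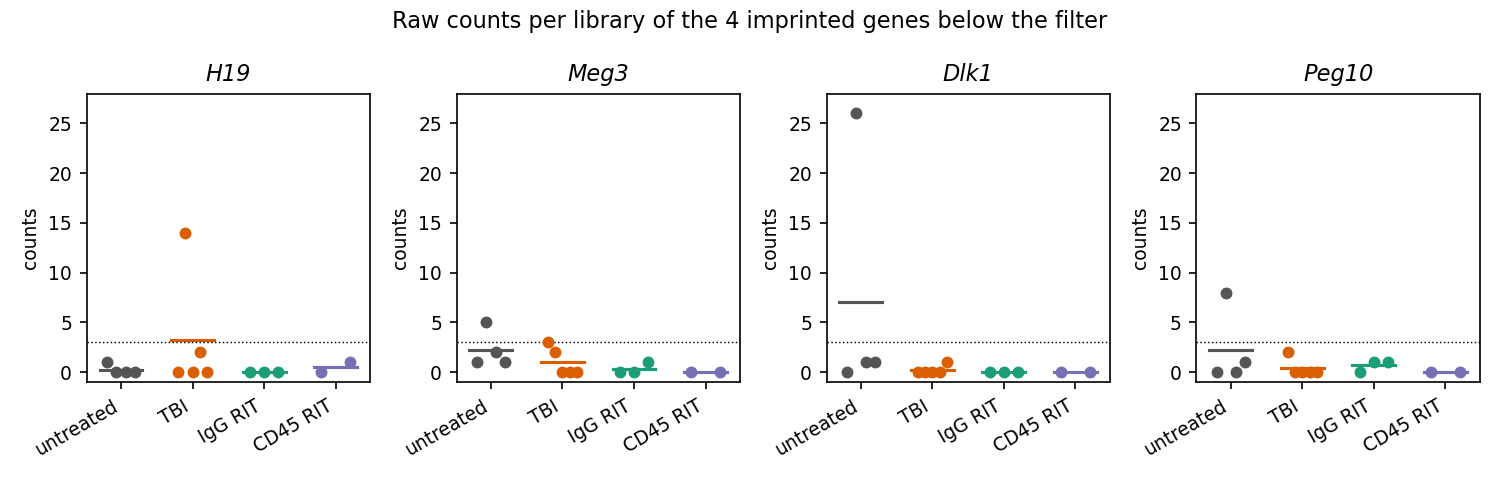
Raw counts of H19, Meg3, Dlk1 and Peg10, which did not pass the filter, in each of the 14 libraries by treatment group, with a dotted line at the floor of 3 counts. Most points lie at or under the line, and the highest are Dlk1 in untreated replicate 2 (26 counts) and H19 in TBI replicate 3 (14 counts).

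Across the set, 6 of the 10 genes passed the filter (Sgce, Cdkn1c, Plagl1, Peg3, Mest and Igf2), and counts over them leave out genes that were near 0 everywhere. Igf2 is left out of the counts that follow because it passed only through the CD45 RIT libraries. None of the 4 others tested against untreated was called in IgG RIT by edgeR, and 1 (Cdkn1c) had an unadjusted p under 0.05, while 16.4% of all 21509 genes tested were called. DESeq2 gave no adjusted p for Cdkn1c and Peg3 there and called neither Plagl1 nor Mest. In CD45 RIT against untreated, Cdkn1c, Plagl1 and Mest were called higher, 3 of 4, Mest through CD45 RIT replicate 2 alone, where 33.1% of all genes were called and 14.5% were called higher. In CD45 RIT against IgG RIT, 4 of 5 were called higher, all but Peg3 and again with Mest through replicate 2 alone, where 37.7% of all genes were called and 20.2% were called higher. The median log2 difference over these members was -1.99, 4.98 and 5.80 in the 3 comparisons, beside -0.42, -0.37 and -0.13 over all genes. Without Sgce, 3 of the 4 (Cdkn1c, Plagl1 and Peg3) had both CD45 RIT libraries above all untreated libraries, beside 17.5% of all genes, and 1 of the 4 (Cdkn1c) had all IgG RIT libraries below all untreated libraries, beside 27.4%. Both CD45 RIT libraries lay above all IgG RIT libraries for 4 of 5, all but Mest, beside 21.7% of all genes. In TBI against untreated, libraries of the groups did not overlap, with TBI lower, for Sgce and Cdkn1c, beside 12.8% of all genes, from which nothing is read because this contrast chose the set. The fitted log2 differences there were -2.15 for Plagl1, -1.80 for Peg3 and -0.20 for Mest. CD45 RIT against TBI gave 5.49 for Sgce, 7.43 for Cdkn1c, 7.68 for Plagl1, 7.18 for Peg3 and 4.11 for Mest, described only. IgG RIT against TBI gave -0.30 for Sgce and 0.29 for Cdkn1c. These comparisons share libraries, so their values are set side by side and are not independent. The RIT libraries and TBI replicate 6 carry library numbers of 10 or more and all other libraries lower ones, so for RIT against untreated the treatment and the library number cannot be told apart except through TBI replicate 6. That library itself stood apart from the other TBI libraries in correlation and marker sums, as given above. With library number as a term, 0 members were called in CD45 RIT against untreated.

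**Figure D4:**
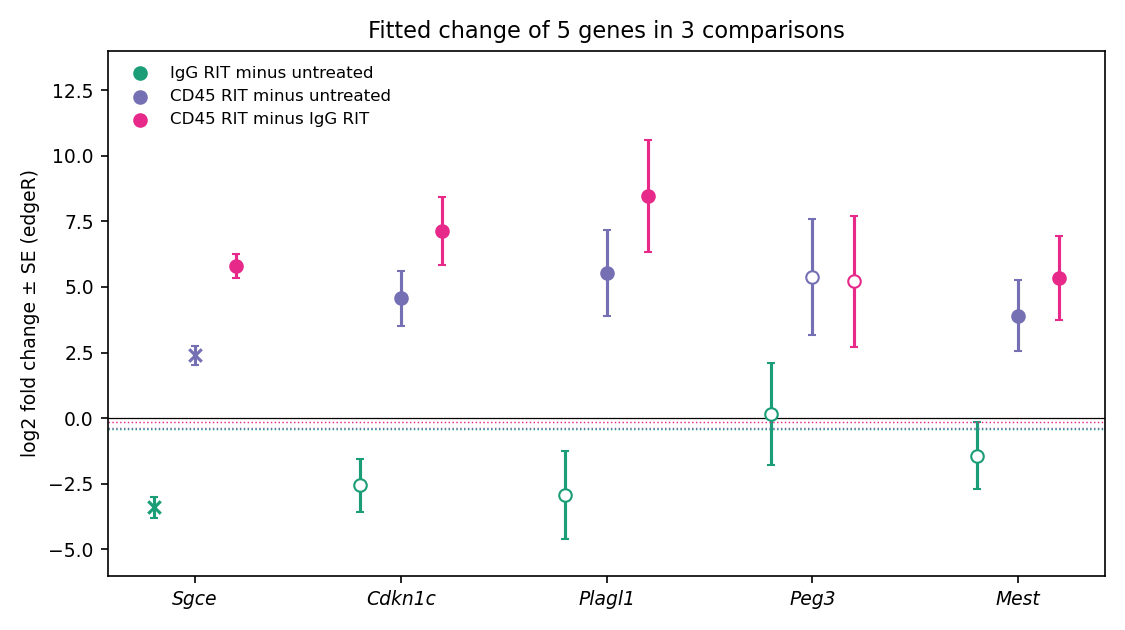
Fitted log2 differences of Sgce, Cdkn1c, Plagl1, Peg3 and Mest in each comparison, with bars of 1 standard error, filled points for genes called, open points for genes tested and not called, crosses where no test was made, and a dotted line at the median of all genes. CD45 RIT minus IgG RIT runs from 5.22 (Peg3) to 8.47 (Plagl1), far above the all-gene median of -0.13.

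Beyond these 10 genes, 43 other imprinted genes were listed and 26 passed the filter. The list includes genes of the clusters above, such as Slc22a18 and Phlda2, whose calls are thus counted again here. In IgG RIT against untreated 1 was higher and 8 were lower (median log2 difference -1.49). In CD45 RIT against untreated 7 were higher and 1 was lower (median 0.90), and against IgG RIT 12 were higher and 1 was lower (median 2.15). The 12 include Nnat, which passed the filter only with CD45 RIT replicate 2, as given below. The shares of all genes called in these 3 comparisons, in either direction, were 16.4%, 33.1% and 37.7%. By direction, 1236, 3115 and 4348 of all 21509 genes were called higher, and 2300, 4001 and 3760 lower. Ndn, which encodes necdin, a growth suppressor of neurons and stem cells, had 0, 71, 65 and 39 counts in untreated libraries, 0 to 7 in TBI, 0 in all IgG RIT and 815 and 661 in CD45 RIT libraries. It was at least 746-fold higher in CD45 RIT than in IgG RIT and at least 25.2-fold lower in IgG RIT than in untreated, against a floor of 3 counts over the group (adjusted p = 0.00371 and 0.0470). The second call was lost without 6 of the 7 libraries, each left out in turn. In CD45 RIT against untreated Ndn was higher by 4.85 (SE 1.51, adjusted p = 0.0317), a call lost without untreated replicate 2, 3 or 4. Dcn, which encodes the matrix proteoglycan decorin and is also 1 of the 20 stromal list genes, was higher in CD45 RIT than in untreated by 3.61 (SE 0.68, adjusted p = 0.00200), but by 1.36 and not called without CD45 RIT replicate 2.

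Peg12 had 8 to 58 counts in untreated, 6 to 22 in TBI, 0 in IgG RIT and 23 and 3 in CD45 RIT libraries, and was lower in IgG RIT with an adjusted p of 0.00998. Slc22a3, an organic cation transporter, had 616 to 1446 counts in untreated, 19 to 395 in TBI and 0, 36 and 1 in IgG RIT libraries, and was lower in IgG RIT by 5.50 (log2 -5.50, SE 1.36, adjusted p = 0.0183), a call lost without IgG RIT replicate 3. Nnat, which encodes neuronatin, had 534 counts in CD45 RIT replicate 2 and 0 in replicate 1. It had 0, 26, 0 and 8 counts in untreated libraries, at most 2 in TBI and 0 in IgG RIT. It passed the filter on low counts only with CD45 RIT replicate 2. Its call as higher in CD45 RIT than in IgG RIT thus rests on that library, and no p is given for it. Nnat lies within an intron of Blcap, whose reads may be shared with it.

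**Figure D5:**
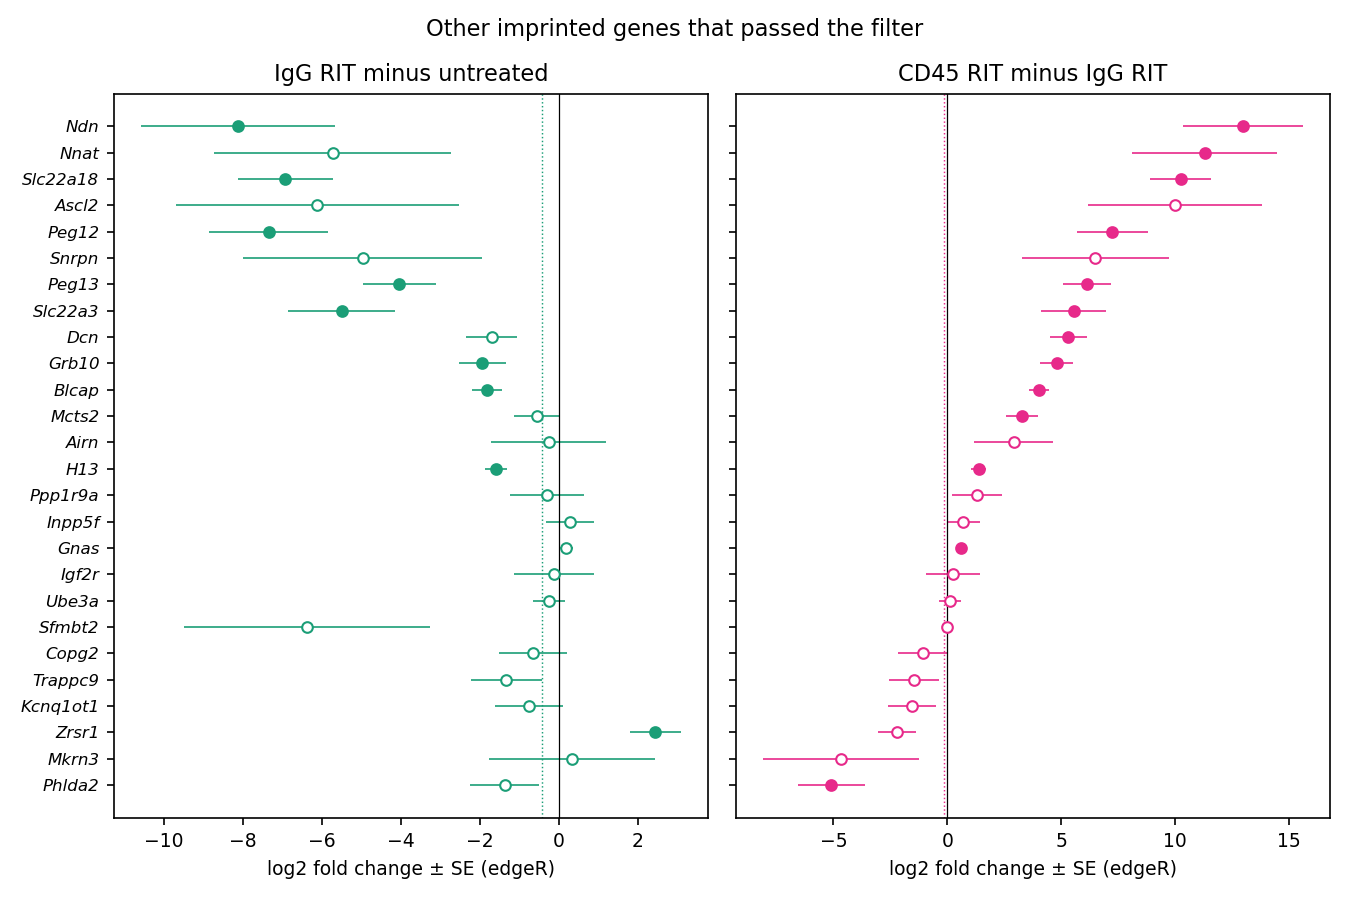
Fitted log2 differences of the 26 other imprinted genes that passed the filter, IgG RIT minus untreated and CD45 RIT minus IgG RIT, with filled points for genes called. The panels share the IgG RIT libraries. In the first 8 genes were called lower, beside 2300 of all 21509 genes. In the second 12 were called higher, beside 20.2% of all genes, among them Nnat, which passed the filter only with CD45 RIT replicate 2. Fitted values of genes at 0 counts in all IgG RIT libraries, such as Ndn, depend on the prior count.

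Of 10 listed genes that maintain imprints (DNA methyltransferases, ZFP57 and its partners, and related factors) 8 passed the filter. In CD45 RIT none was higher and 3 were lower than in untreated, and 1 was higher and 3 were lower than in IgG RIT. In IgG RIT 1 was higher and 2 were lower than in untreated. Of all genes 33.1%, 37.7% and 16.4% were called in either direction, in the same order, with the split by direction given above. Trim28, the corepressor that ZFP57 recruits, was lower than in untreated by 1.84 in CD45 RIT (log2 -1.84, SE 0.32, adjusted p = 0.00113). Its call as lower in IgG RIT (log2 -0.87, SE 0.26, adjusted p = 0.0399) was lost when any 1 library was left out, with values of -0.94 to -0.81. Uhrf1, which brings DNMT1 to replicating DNA, was higher than in untreated by 0.92 in the IgG RIT libraries (SE 0.18, adjusted p = 0.00700). In CD45 RIT it was lower than in untreated (log2 -0.99, SE 0.22, adjusted p = 0.00497, not called without CD45 RIT replicate 2). Setdb1 was lower in CD45 RIT (log2 -1.22, SE 0.40, adjusted p = 0.0326), a call lost without untreated replicate 4 or CD45 RIT replicate 2. Against IgG RIT, CD45 RIT had Dnmt3a, a de novo methyltransferase, higher by 3.31 (SE 0.87, adjusted p = 0.0110), but by 0.17 and not called without CD45 RIT replicate 2. Ctcf, the insulator protein of the H19-Igf2 control region, was lower in CD45 RIT than in IgG RIT (log2 -1.68, SE 0.55, adjusted p = 0.0305), a call lost without IgG RIT replicate 1 or 2. Uhrf1 was also lower there (log2 -1.92, SE 0.24, adjusted p = 9.04e-05), with values of -2.29 to -1.77 without 1 library. So was Trim28 (log2 -0.97, SE 0.32, adjusted p = 0.0302), a call lost when any 1 IgG RIT library was left out. Dnmt3b was lower in IgG RIT than in untreated (log2 -4.29, SE 1.32, adjusted p = 0.0438), a call lost when any 1 library was left out, with values of -5.72 to -3.87.

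Partners of the members' proteins were listed as 26 genes, of which 23 passed. In IgG RIT 1 was higher and 6 were lower than in untreated. In CD45 RIT 7 were higher and 4 lower than in untreated, and 10 were higher and 1 lower than in IgG RIT. Of all genes, 16.4%, 33.1% and 37.7% were called in either direction, in the same order, with the split by direction given above. Cdkn1a, which encodes p21, a CDK inhibitor like p57, had 754 to 1341 counts in untreated, 560 to 1608 in TBI, 596 to 835 in IgG RIT and 9030 and 19439 in CD45 RIT libraries, and was higher in CD45 RIT than in untreated by 4.54 (SE 0.47, adjusted p = 3.44e-05). Cdk2, the S-phase kinase that p57 inhibits, stood at 126 and 81 counts in CD45 RIT against 3485 to 4237 in untreated libraries, lower by 4.33 (log2 -4.33, SE 0.31, adjusted p = 3.46e-06). Cdk6 was lower in CD45 RIT (log2 -3.57, SE 0.81, adjusted p = 0.00567). Among partners of Sgce, the sarcoglycan Sgcb was higher in CD45 RIT than in IgG RIT libraries, by 5.47 (SE 1.29, adjusted p = 0.00616), and the dystroglycan gene Dag1 by 4.28 (SE 0.51, adjusted p = 7.46e-05). Sgcb stood at 17.8, 7.39, 3.91 and 174 mean CPM in untreated, TBI, IgG RIT and CD45 RIT libraries, the order of group means seen for Sgce. Notch1, a receptor that DLK1 is known to modulate, was lower in IgG RIT than in untreated (log2 -3.59, SE 0.87, adjusted p = 0.0173) and higher in CD45 RIT than in IgG RIT by 4.75 (SE 0.98, adjusted p = 0.00270). Ccnd2, a D-type cyclin, was lower in IgG RIT than in untreated (log2 -3.07, SE 0.48, adjusted p = 0.00282). Cdk6 was also lower there (log2 -2.70, adjusted p = 0.0161), as was Notch4 (log2 -2.76, adjusted p = 0.0459), and both calls were lost when any 1 IgG RIT library was left out, that of Notch4 also when any 1 untreated library was. Dmd, the dystrophin gene, was lower in CD45 RIT than in untreated (log2 -4.82, adjusted p = 0.0497), a call lost when any 1 untreated library or CD45 RIT replicate 2 was left out.

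The genes whose pattern over the 14 libraries was most like that of Sgce were Cd63, Tmem159, Cnn2, Rbpms and Cd9, with a root mean square difference of 0.54, 0.58, 0.60, 0.60 and 0.61 between mean-centred log2 CPM values, among 8099 candidates. No member reached the mean log2 CPM of 3 set for this search, and it was run for Sgce after its value, 2.99, had been seen. Cd63, a tetraspanin of endosomes, stood at 405, 67.6, 45.9 and 1386 mean CPM in untreated, TBI, IgG RIT and CD45 RIT libraries.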

How the data were processed

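RNA-seq libraries were made from amplified full-length cDNA (SMART-Seq v4, Nextera XT), per the labels' protocols. The authors deposited a table of raw counts for 55335 genes, all whole numbers and not normalized. STAR 2.7.7a, FastQC 0.11.9 and edgeR 3.36.0 are named in the submitters' processing notes, which also name the human build hg38. The coordinates are murine: 54587 gene identifiers matched GENCODE M21 (GRCm38), all with the same coordinates, and so did those of 9 of the 10 members (not Peg3, whose coordinates are the table's). The counter and its strand setting are not given in the sources used here. No molecular identifiers were used, so intervals and floors cover counting error only. All columns were assigned to samples by library name.

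Genes were kept by filterByExpr (minimum count 10, minimum total 15), which left 21509. All 14 libraries entered 1 quasi-likelihood fit with a group term only (R 4.3.3, edgeR 4.0.16, TMM factors). Benjamini-Hochberg adjustment ran over all genes within each of 3 tested contrasts, with calls at an adjusted p below 0.05. The standard error was taken as the log2 difference over the root of F. CPM of single genes used TMM-scaled totals, and marker list sums used total counts. The fit was tested on simulated counts. Alternatives were RLE or no scaling factors, no filter, DESeq2 1.42.0, only the groups compared, a replicate block and leaving out each library. A library-number term was added after seeing the data.

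All 10 members were named. Other genes were named where they lie in a member's imprinted cluster and passed the filter, or were among the 4 called genes with the largest change of their list in a contrast. The members and lists were chosen with earlier results of these data known.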

Additional observations from a re-analysis of the deposited data

Results flagged for a closer look

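In groups of 4 or 5 libraries, 8 of 19 combinations of member and group had 1 library set apart from the others by Dixon's test. For Sgce this was TBI replicate 5, at 3.05 CPM (90 counts), the highest of a narrow group. For Peg3 it was TBI replicate 4, at 1.00 CPM (21 counts). The other 6 were genes near the floor: H19 in untreated replicate 1 (0.0262 CPM, 1 count) and TBI replicate 3 (0.484 CPM, 14 counts), Dlk1 in untreated replicate 2 (0.778 CPM, 26 counts) and TBI replicate 6 (0.0718 CPM, 1 count), and Peg10 in untreated replicate 2 (0.239 CPM, 8 counts) and TBI replicate 1 (0.0708 CPM, 2 counts). Those of 1 or 2 counts among libraries at 0 pass the test by construction, so the chance rate of about 1 in 20 groups does not apply to them and no excess is read from the number. Untreated replicate 2 was the library set apart for both Dlk1 and Peg10.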

How the results depend on the processing

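The number of genes called was 8108 in CD45 RIT against IgG RIT, 7116 in CD45 RIT against untreated and 3536 in IgG RIT against untreated. With only the groups compared in the fit these were 1141, 3850 and 6457, and with a replicate block 5098, 4062 and 2063. The library-number term gave 2458 in CD45 RIT against untreated and 19 in IgG RIT against untreated, and DESeq2 gave 5942 in the latter. Leaving out 1 library gave 6354 to 12031, 5839 to 11327 and 1769 to 2535. Members called, 5 and 4 in the CD45 RIT comparisons with IgG RIT and untreated, were 1 and 1 with only the groups compared, 2 and 0 with the replicate block, 0 against untreated with the library-number term, and 3 to 5 and 2 to 4 without 1 library. In IgG RIT against untreated they were 0 to 1 without 1 library. These counts include Igf2, which passed the filter only through the CD45 RIT libraries, and those without CD45 RIT replicate 2 include Mest in the opposite direction. The cause of these shifts was not tested.

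Directions turned for Mest without CD45 RIT replicate 2 (-6.94 against IgG RIT and -8.17 against untreated), and the highest values without 1 library were 6.33 and 4.91. In IgG RIT against untreated they turned for Igf2 without untreated replicate 2 (0.51, with -2.84 as the lowest value without 1 library), for Plagl1, Dnmt3b and Trim28 with the library-number term (3.14, 1.66 and 0.10), and for Peg3 without scaling factors (-0.27) and without IgG RIT replicate 2, untreated replicate 1 or untreated replicate 2 (-7.37, -0.25 and -0.25, with 0.90 as the highest). The Sgce call in CD45 RIT against IgG RIT held under every alternative run. DESeq2 gave no adjusted p for Cdkn1c and Peg3.

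Same-numbered libraries showed little shared deviation: 1 of 13 pairs had a correlation over 0.1 (-0.0896 to 0.139). Pairs with different numbers were not set beside them, so this does not settle whether the numbers pair the libraries. Under the replicate block Cdkn1c in CD45 RIT against untreated had an adjusted p of 0.0662. Fits with 1 CD45 RIT library assume that it varies like the other groups. Scaling moved the share of called genes that were higher from 35.0% to 46.7% (RLE) and 14.5% (none) in IgG RIT against untreated, and from 43.8% to 52.8% and 22.7% in CD45 RIT against untreated. The median log2 difference of all genes in IgG RIT against untreated was -0.42, -0.21 and -0.94 with TMM, RLE and no factors. H19, Meg3, Dlk1 and Peg10 were at 0 to 3 counts in most libraries, with 14, 5, 26 and 8 counts as their highest, and are limited by depth.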
